A study of Saccharomyces cerevisiae with 12 samples.

Results

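The commercial wine yeast EC1118, a strain of Saccharomyces cerevisiae, was compared between closed bottles on day 15 of a second fermentation and a culture growing without stress. The comparison sets 3 arrays labelled as the middle bottle sampling point against 3 labelled as the reference, over 5449 S. cerevisiae genes. These are 6 of the 12 arrays of the series, and the tests took each gene's spread from all 12. Second fermentation is the step that makes a base wine sparkling. Yeast already adapted to ethanol and 20 g/L of sucrose had gone into 20 L of base wine, which was divided into sealed bottles of 350 mL and left without agitation at 16 °C. By day 15 the ethanol content had risen by 0.89%, per the labels. The reference cells grew at 28 °C in YPD, a rich medium with glucose, and were taken in mid-exponential phase at an optical density of 1.0. Medium, temperature, ethanol, vessel and growth phase therefore changed together, and their parts in any difference cannot be told apart. The labels name 3 biological replicates in each group. They describe the bottles as independent assays but do not say whether the reference replicates were separate cultures, so the reference spread may be technical.

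Yeast that has glucose in plenty ferments it and represses the genes of respiration, gluconeogenesis and the use of other carbon sources. When glucose runs low, the kinase Snf1 and activators such as Cat8, Adr1 and Hap4 turn these genes on, while lower activity of protein kinase A and of the TOR kinase turns on stress and storage genes and turns down ribosome production. A wine at the end of a fermentation adds ethanol, acid and a shortage of oxygen, under which yeast relies on genes for anaerobic cell walls and sterol uptake.

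Every value below is a deposited log2 probe set value, in the order replicate 1, 2 and 3. A change is the day 15 mean minus the reference mean, on the log2 scale, ± its standard error, with 3 arrays in each group. The standard error takes each gene's spread from all 12 arrays, with those of the other bottle sampling points, day 7 and day 19, included. It is therefore not the spread of the 2 groups alone. Adjusted p comes from limma with Benjamini-Hochberg adjustment over the 5449 genes, and a gene is called higher or lower, or said to rise or fall, where it is under 0.05. Counts given without named arrays come from fits that left those arrays out 1 at a time. Of the 108 counts of list members given below, array weights raised 57 by over 1.5 times and a fit of only the groups compared raised 28, and neither lowered any by as much. Each such count stands beside 21.4% of all genes called higher and 23.5% called lower. Each array received an equal amount of total RNA, so the values are shares of the RNA present. In such bulk samples, fewer cells that hold a transcript and less of it per cell cannot be told apart.

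At day 15, 1164 genes were called higher, which is 21.4% of those tested, and 1283 lower, which is 23.5%. The median change of all genes was -0.08, a value that the common scale of the arrays holds near 0. Of the genes called, 910 rose and 871 fell by at least 2-fold. The rises reached further: 75 genes rose by 4 or more on the log2 scale, and 3 fell by as much. The 3 arrays of one group lay all above or all below those of the other for 3857 genes, which is 70.8%. Among the genes called, 1156 of the 1164 higher and 1276 of the 1283 lower ones were separated in this way. The plot of change against mean level shows the wider spread of the rises, most of it among genes with a middle or low mean level. Of the 273 genes with the brightest reference means (above 13.07), 5 were called higher and 92 lower. These genes were chosen by their reference mean, which is itself part of the comparison, and had little room to rise. The choice therefore favours falls, and the split is no result about bright genes. The brightest value on the 6 arrays was 14.63.

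**Figure D1:**
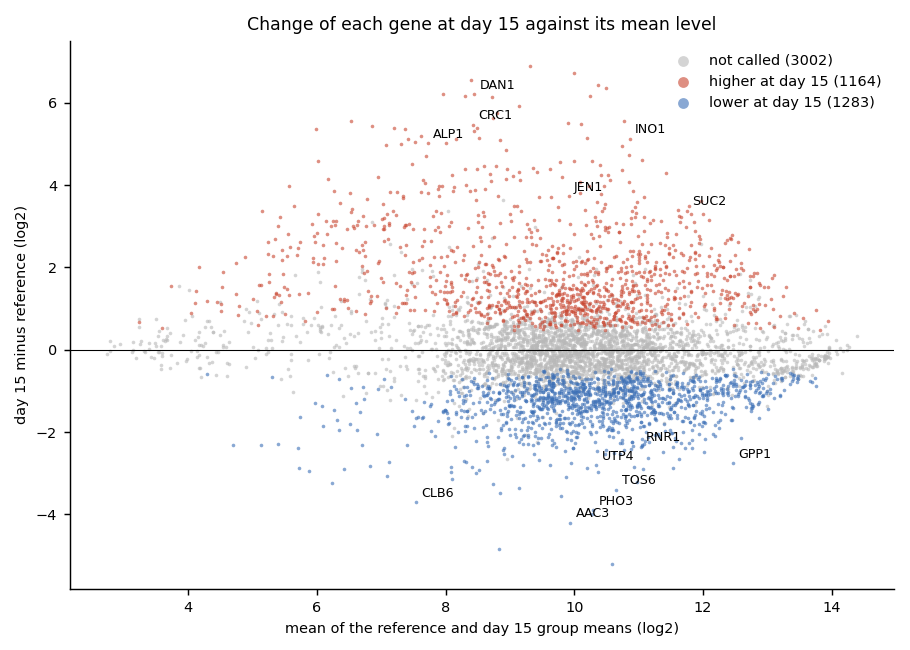
Change of each of 5449 genes (day 15 minus reference, log2) against the mean of both group means (log2), with 1164 genes called higher in red, 1283 called lower in blue and the rest in grey. Rises extend beyond 6 on the log2 scale, while only 3 falls pass 4.

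As a check of the reference labels only, HXT1, the transporter of high glucose, read 12.26 to 12.33 in the reference, and ADH2, which glucose represses, 5.97 to 6.61. Neither gene passed the limma test between day 15 and the reference (adjusted p = 0.133 and 0.0556), so they do not check the day 15 labels. The day 15 arrays were less alike than the reference arrays. Across genes, replicate 1 correlated with replicates 2 and 3 at 0.917 and 0.932, and these correlated at 0.980 with each other, against 0.987 to 0.997 in the reference. A gene's standard deviation had a median of 0.295 at day 15 and 0.118 in the reference. Replicate 1 of day 15 lay nearest to the reference in the medians of 42 of the 54 gene lists described here. Without it 1197 genes were called higher and 1382 lower. Measures of RNA quality also differed between the groups. Ribosomal RNA, read by 7 probe sets, gave a mean of 7.03 ± 1.35 (SD, n = 3) in the reference and 12.5 ± 0.514 at day 15. The array reads 7 genes with both a 3′ and a 5′ probe set. The gap between these was wider at day 15 without overlap for SPT15, SRB4 and EAF5, smaller without overlap for RIP1 and TDH1, and overlapped for ACT1 and WBP1. The 3′ probe set of SPT15 exceeded its 5′ probe set by 0.60, 0.58 and 0.65 in the reference and by 1.07, 0.97 and 1.24 at day 15, while that of RIP1 exceeded its own by 0.26, 0.29 and 0.27 in the reference and differed from it by -0.06, -0.21 and -0.09 at day 15. Spiked control transcripts averaged 10.7, 10.3 and 10.6 in the reference and 10.8, 12.3 and 11.1 at day 15, with replicate 2 the highest. For ribosomal RNA, SPT15, RIP1 and the spiked controls the exact two-sided permutation test gave p = 0.1, the smallest that 3 arrays against 3 allow. Genes called higher had a median coding length of 1107 bases and those called lower 1440, against 1236 for all genes. With each array's trend on coding length removed, 1170 genes were called higher and 1291 lower. The part of the RNA differences in single results was not otherwise tested.

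**Figure D2:**
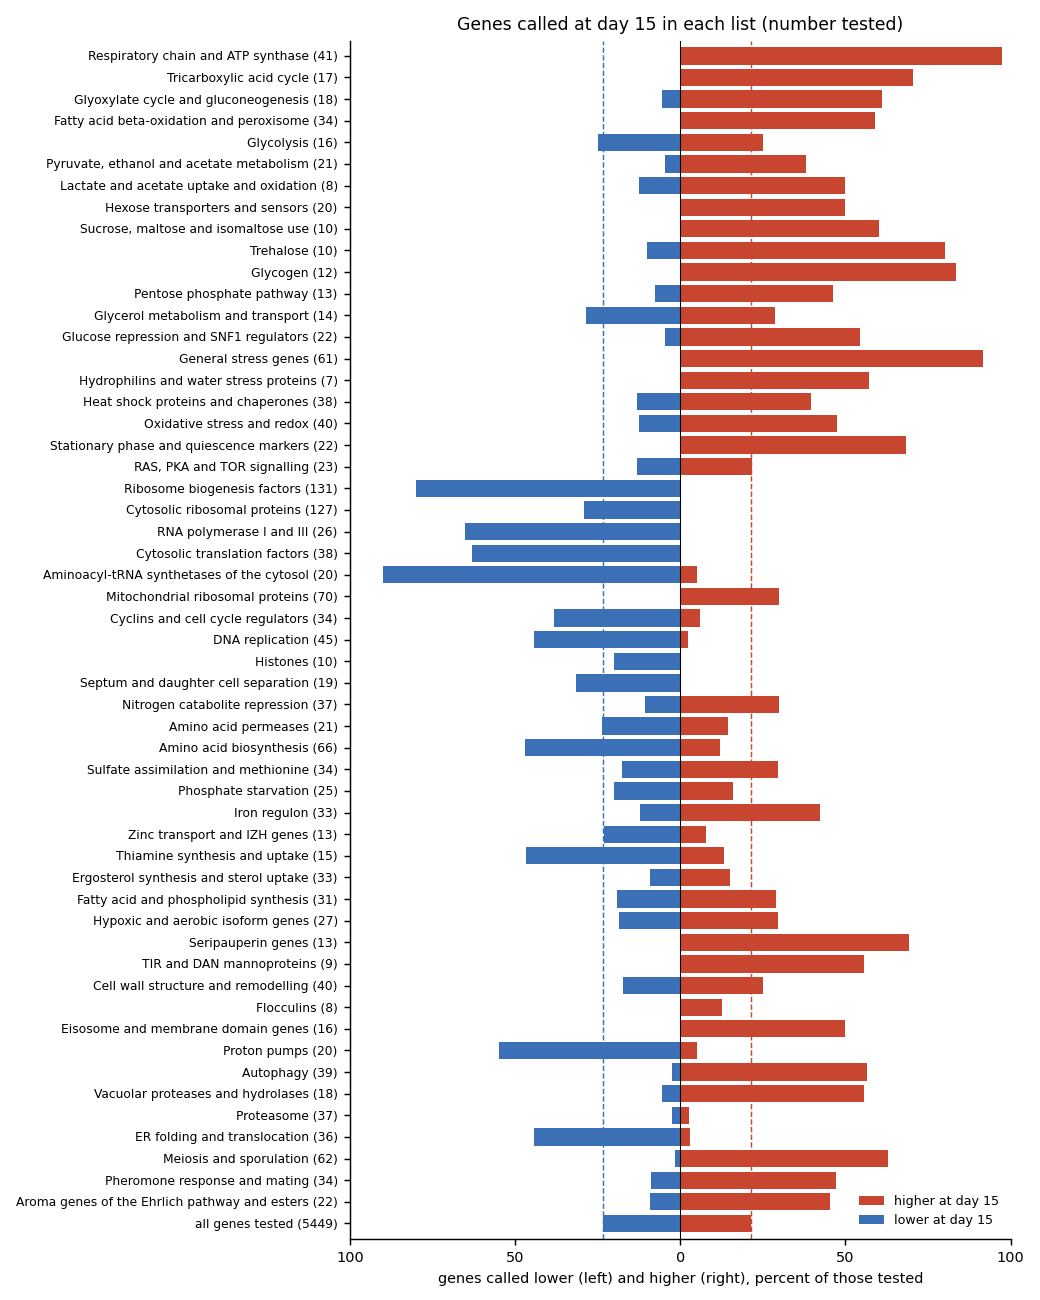
Percent of the tested genes of each of 54 lists called lower (blue, to the left) and higher (red, to the right) at day 15, with the number tested in brackets and all genes in the bottom bar. Dashed lines mark 21.4% higher and 23.5% lower over all genes. Lists of respiration, storage sugars and general stress lie far to the right, and those of ribosome production, translation and tRNA charging far to the left.

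Genes that yeast turns on when glucose ends were widely higher. Of 41 subunits of the respiratory chain and ATP synthase, 40 rose, with a median change of 1.52, and of 17 genes of the tricarboxylic acid cycle 12 rose and 0 fell, with a median of 1.42. The regulators of this switch were higher as well. CAT8, the activator of gluconeogenic genes, lay at 7.09, 6.51 and 7.33 in the reference and 9.93, 11.96 and 11.99 at day 15, and rose by 4.32 ± 0.62 (adjusted p = 0.000399). ADR1, which activates genes of ethanol and fatty acid oxidation, rose by 3.36 ± 0.42 (adjusted p = 0.000169), and SIP4, a target and partner of Cat8, rose by 3.29 ± 0.69 (adjusted p = 0.00315). HAP4, the limiting subunit of the activator of respiratory genes, was already at 11.19, 11.16 and 11.46 in the reference and rose by 1.58 ± 0.21 (adjusted p = 0.000253). All 3 day 15 arrays exceeded all 3 reference arrays for each of these regulators. REG2, a regulatory subunit of the phosphatase that counteracts Snf1, lay at 6.04, 6.06 and 6.77 in the reference and 10.43, 11.93 and 11.82 at day 15, a gap wider than that of any of the activators. It rose by 5.10 ± 0.61 (adjusted p = 0.000135). SNF1 itself differed by -0.35 ± 0.21 (adjusted p = 0.193), and MIG1, the repressor that Snf1 inactivates, differed by -0.55 ± 0.58 (adjusted p = 0.461), with overlapping arrays in both cases. Of the 22 glucose repression regulators listed, 12 rose and 1 fell, or 3 without day 15 replicate 1, with a median change of 1.04.

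NADH dehydrogenases and complex III subunits were among the respiratory genes that rose. CYT1, cytochrome c1, lay at 11.07, 10.74 and 10.85 in the reference and 13.25, 13.49 and 13.36 at day 15, and rose by 2.49 ± 0.22 (adjusted p = 2.97e-05). NDI1, the internal NADH dehydrogenase that takes the place of a complex I in yeast, rose by 2.88 ± 0.31 (adjusted p = 6.21e-05), and the complex III subunits QCR6 and QCR10 rose by 2.29 ± 0.22 and 2.31 ± 0.19. The external NADH dehydrogenase gene NDE2 was at 5.81, 5.79 and 6.21 in the reference, at 7.65 on the first day 15 array and at 11.24 and 10.61 on the others. Its call was lost without day 15 replicate 2 (adjusted p = 0.0582). ATP2, the catalytic beta subunit of ATP synthase, was the 1 listed gene that did not pass, and it differed by 0.45 ± 0.24 (adjusted p = 0.146). In the cycle, the succinate dehydrogenase genes SDH2, SDH3 and SDH4 rose by 2.27 ± 0.23, 1.78 ± 0.27 and 2.14 ± 0.19. CIT1, the mitochondrial citrate synthase, rose by 1.57 ± 0.18 (adjusted p = 8.79e-05), and its low paralogue CIT3 rose by 3.19 ± 0.69 (adjusted p = 0.00388), whereas KGD1 of the oxoglutarate dehydrogenase complex differed by 0.49 ± 0.42 (adjusted p = 0.358).

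Genes of gluconeogenesis and the glyoxylate cycle, which build sugar from acetyl units, showed large rises with wide spread. Of 18 listed, 11 rose, with a median change of 2.79. The count of genes that fell was 1, or 0 without reference replicates 1, 2 and 3 and day 15 replicates 1, 2 and 3. MLS1, malate synthase, lay at 6.28, 6.03 and 6.15 in the reference and 9.54, 10.36 and 10.44 at day 15, and rose by 3.95 ± 1.01 (adjusted p = 0.00887). PCK1, phosphoenolpyruvate carboxykinase, lay at 6.42, 5.86 and 7.04 in the reference and 8.31, 11.78 and 10.84 at day 15, and FBP1, fructose-1,6-bisphosphatase, at 5.33, 5.76 and 5.32 in the reference and 7.37, 9.94 and 10.30 at day 15. In both genes replicate 1 of day 15 was well below the others, though above every reference array. PCK1 rose by 3.87 ± 1.22 (adjusted p = 0.0235), and its call was lost without reference replicates 1 and 2 and day 15 replicates 2 and 3 taken 1 at a time (adjusted p = 0.0594 to 0.1), and under quantile normalization (adjusted p = 0.0574). FBP1 rose by 3.73 ± 1.22 (adjusted p = 0.0277), and its call was lost without reference replicates 1, 2 and 3 and day 15 replicates 2 and 3 taken 1 at a time (adjusted p = 0.059 to 0.101), and under quantile normalization (adjusted p = 0.0871). ICL1, isocitrate lyase, differed by 1.26 ± 0.98 (adjusted p = 0.312).

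Fatty acid oxidation, which in yeast runs in peroxisomes, was called higher for 20 of 34 listed genes and lower for 0, with a median change of 1.21. POX1, the acyl-CoA oxidase of the first step, lay at 5.60, 5.79 and 6.04 in the reference and 9.08, 9.88 and 9.93 at day 15, and rose by 3.82 ± 0.67 (adjusted p = 0.00125). The thiolase gene POT1 rose by 6.17 ± 0.85 (adjusted p = 0.000328) and SPS19, a dienoyl-CoA reductase, rose by 3.26 ± 0.74 (adjusted p = 0.00474). CTA1, the peroxisomal catalase, rose by 3.88 ± 0.92 (adjusted p = 0.00584). Carnitine genes, which carry the acetyl units into mitochondria, were higher too. CRC1, the inner membrane carnitine carrier, lay at 5.39, 5.75 and 5.93 in the reference and 9.89, 11.99 and 11.60 at day 15, and CAT2, the carnitine acetyltransferase, at 8.60, 8.50 and 8.69 in the reference and 10.56, 12.25 and 11.39 at day 15. CRC1 rose by 5.47 ± 0.49 (adjusted p = 2.87e-05) and CAT2 rose by 2.80 ± 0.53 (adjusted p = 0.00173), with replicate 1 the lowest day 15 array in both. PEX18, a peroxin for protein import, was above background on no reference array and was at least 27.8-fold higher at day 15.

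Glycolysis had a median change near 0, with calls in both directions. Of 16 genes 4 rose (25%) and 4 fell (25%), close to the 21.4% and 23.5% over all genes. The median change was -0.01, a value whose sign depends on the setting. Both subunits of phosphofructokinase, the committed step, fell on every array: PFK1 lay at 13.57, 13.47 and 13.48 in the reference and 12.59, 12.03 and 11.97 at day 15, and PFK2 at 13.75, 13.70 and 13.73 in the reference and 12.50, 12.21 and 12.16 at day 15. PFK1 fell by 1.31 ± 0.25 (adjusted p = 0.00198) and PFK2 fell by 1.44 ± 0.22 (adjusted p = 0.00056). At the entry, HXK1 and GLK1, the hexokinase and glucokinase known from poor carbon sources, rose by 1.82 ± 0.22 and 1.78 ± 0.19. HXK2, the hexokinase of growth on glucose, differed by -1.31 ± 0.76 (adjusted p = 0.177), and on replicate 1 of day 15 it read 13.12 against 11.59 and 11.90 on the others. The main pyruvate kinase CDC19 differed by 0.05 ± 0.16 (adjusted p = 0.802) while its paralogue PYK2 rose by 1.27 ± 0.34 (adjusted p = 0.0108). CDC19, PDC1 and ADH1 read 13.91 or more on all 6 arrays, close to the top of the scale.

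From pyruvate onwards, 8 of 21 listed genes of ethanol and acetate metabolism rose (5 without reference replicates 1, 2 and 3 and day 15 replicates 2 and 3) and 1 fell (0 without reference replicates 1, 2 and 3 and day 15 replicates 2 and 3), with a median change of 0.98. ACS1, the acetyl-CoA synthetase of slow growth, lay at 8.68, 8.91 and 9.41 in the reference and 10.89, 11.76 and 11.53 at day 15, and rose by 2.39 ± 0.48 (adjusted p = 0.00261). ACH1, a mitochondrial enzyme of acetyl-CoA transfer, rose by 2.43 ± 0.29 (adjusted p = 0.000135). ADH2, the alcohol dehydrogenase that oxidises ethanol, lay at 5.97, 6.46 and 6.61 in the reference and 7.62, 11.41 and 10.14 at day 15. All 3 bottle arrays exceeded the reference, but the gene did not pass, and it differed by 3.38 ± 1.32 (adjusted p = 0.0556). PDC6, a minor pyruvate decarboxylase, rose by 2.73 ± 0.97 (adjusted p = 0.0385), a call lost without any 1 of the 6 arrays (adjusted p = 0.0519 to 0.11), and under quantile normalization (adjusted p = 0.0685).

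Uptake of lactate and acetate was represented by 8 genes, of which 4 rose and 1 fell, with a median of 2.56. JEN1, the lactate and pyruvate permease, lay at 7.95, 7.99 and 8.18 in the reference and 11.71, 11.91 and 11.71 at day 15, and rose by 3.73 ± 0.33 (adjusted p = 2.54e-05). The day 15 arrays stood close together and far above the reference. ATO2, a putative ammonium and acetate transporter, rose by 4.56 ± 0.55 (adjusted p = 0.000135), and its relative ATO3 moved the other way and fell by 1.74 ± 0.48 (adjusted p = 0.0127). DLD1, the mitochondrial D-lactate dehydrogenase, rose by 2.02 ± 0.35 (adjusted p = 0.0011).

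Among sugar transporters, 10 of 20 listed genes rose and 0 fell, with a median of 1.33. HXT1, the low-affinity transporter of high glucose, lay at 12.26, 12.33 and 12.26 in the reference and 11.36, 10.30 and 9.85 at day 15. All bottle arrays were below the reference, but it differed by -1.78 ± 0.92 (adjusted p = 0.133). HXT3, another low-affinity transporter, differed by -0.52 ± 0.99 (adjusted p = 0.694), with overlapping arrays. HXT7, a high-affinity transporter, rose by 1.22 ± 0.20 (adjusted p = 0.000904). The widest gap was in HXT17, at 5.96, 6.21 and 6.37 in the reference and 11.44, 12.43 and 12.43 at day 15. HXT17 rose by 5.92 ± 0.92 (adjusted p = 0.000619). HXT13 was above background on no reference array and was at least 14.8-fold higher at day 15, while HXT14 was at least 4.8-fold higher. The probe sets of HXT7, HXT13 and HXT17 carry a suffix for sequence shared with related genes, so their reads cannot be given to 1 gene with certainty. HXT8 had a probe set of its own and rose by 3.14 ± 0.50 (adjusted p = 0.000726), with 1 of 3 reference arrays above background.

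The sugar added to the bottles is split by invertase outside the cell. SUC2, the invertase gene, lay at 9.88, 10.13 and 10.16 in the reference and 13.24, 13.60 and 13.47 at day 15, and rose by 3.38 ± 0.33 (adjusted p = 4.82e-05). All bottle arrays were above the reference and close to the brightest genes on the array. Of 10 genes for sucrose, maltose and isomaltose, 6 rose and 0 fell, with a median of 1.78. MAL31, a maltose permease, rose by 1.75 ± 0.43 (adjusted p = 0.00716), MAL33, a maltose activator, rose by 1.52 ± 0.37 (adjusted p = 0.00687), and the isomaltase gene IMA1 rose by 2.19 ± 0.58 (adjusted p = 0.0108).

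**Figure D3:**
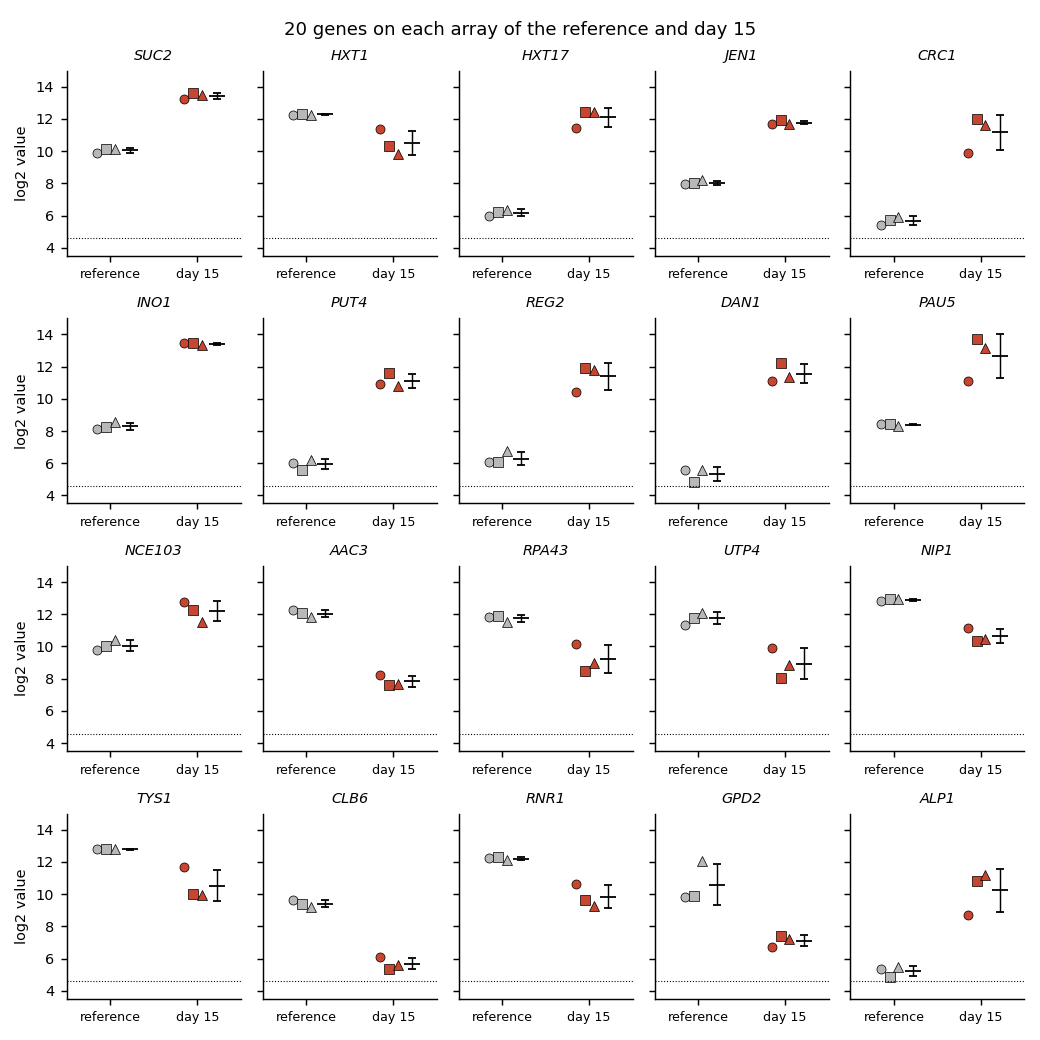
Deposited log2 values of 20 genes on the 3 reference arrays (grey) and the 3 day 15 arrays (red), with replicate 1 as a circle, 2 as a square and 3 as a triangle, the mean ± SD beside them and the background level of 4.58 as a dotted line. SUC2, JEN1 and INO1 are tight at day 15, while replicate 1 lies closer to the reference in CRC1, PAU5, ALP1, RPA43 and TYS1.

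The plot of 20 genes by array shows this difference in spread among the bottles. It also shows GPD2, in which replicate 3 of the reference stands above the other 2 reference arrays.

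Genes for making and for breaking storage sugars were called higher, while the sugars themselves were not measured. Of 10 trehalose genes 8 rose (5 without reference replicates 1 and 2 and day 15 replicate 2) and 1 fell, with a median of 0.93, and of 12 glycogen genes 10 rose and 0 fell, with a median of 2.23. TSL1, a regulatory subunit of trehalose synthase, rose by 1.95 ± 0.29 (adjusted p = 0.00054), and the trehalases ATH1 and NTH2 rose by 2.40 ± 0.47 and 2.35 ± 0.33. For glycogen, the synthase GSY2 rose by 1.44 ± 0.28 (adjusted p = 0.00201) while GPH1, the phosphorylase that breaks it down, lay at 9.92, 10.26 and 10.61 in the reference and 12.46, 13.05 and 12.94 at day 15, and rose by 2.55 ± 0.38 (adjusted p = 0.000535). GAC1, the subunit that directs a phosphatase to glycogen synthase, lay at 6.59, 7.53 and 8.12 in the reference and 11.43, 12.06 and 11.97 at day 15, and rose by 4.40 ± 0.49 (adjusted p = 8.41e-05). The related targeting subunits PIG2 and GIP2 rose by 3.12 ± 0.45 and 3.39 ± 0.55. The phosphoglucomutases at the head of these pathways went apart, as PGM1 fell by 2.47 ± 0.49 (adjusted p = 0.00234) and PGM2 rose by 1.99 ± 0.39 (adjusted p = 0.00221).

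The pentose phosphate pathway, a source of NADPH, rose in its inducible paralogues. NQM1, a transaldolase paralogue, lay at 7.82, 7.94 and 8.19 in the reference and 11.65, 13.16 and 12.88 at day 15, and rose by 4.58 ± 0.49 (adjusted p = 7.12e-05), and the transketolase TKL2, the lactonase SOL4 and the dehydrogenase GND2 rose by 4.70 ± 1.16, 3.81 ± 0.63 and 3.03 ± 0.72. Their partners TAL1, SOL3 and GND1 differed by -0.41 ± 0.27 (adjusted p = 0.23), -1.40 ± 0.61 (adjusted p = 0.0818) and 0.16 ± 0.92 (adjusted p = 0.899), and TKL1 did not pass either (adjusted p = 0.124). ZWF1, which opens the pathway, rose by 1.26 ± 0.21 (adjusted p = 0.000858). Of 13 listed genes 6 rose and 1 fell (0 without reference replicates 1, 2 and 3 and day 15 replicates 2 and 3), with a median of 0.79.

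Glycerol, which yeast makes against osmotic stress and to balance NADH, was split by direction: 4 of 14 genes rose and 4 fell, with a median of 0.11. Each count is 28.6%, against 21.4% higher and 23.5% lower over all genes. GPP1, GPD2 and FPS1, of synthesis and export, were among those that fell. GPP1, the main glycerol-3-phosphatase, lay at 13.93, 13.83 and 13.77 in the reference and 11.89, 11.05 and 10.31 at day 15, and fell by 2.76 ± 0.58 (adjusted p = 0.00309). GPD2, the dehydrogenase isoform linked to anaerobic growth, lay at 9.84, 9.86 and 12.07 in the reference and 6.71, 7.39 and 7.20 at day 15, and fell by 3.49 ± 0.52 (adjusted p = 0.00049). FPS1, the export channel, fell by 1.24 ± 0.20 (adjusted p = 0.000858). The osmotic isoform GPD1 differed by 0.06 ± 0.33 (adjusted p = 0.896), with arrays of the groups overlapping, and with array weights it fell by 0.29 (adjusted p = 0.0335). GPP2, the other phosphatase, differed by 0.88 ± 0.39 (adjusted p = 0.0871). The 4 that rose were STL1, GUT1, GUT2 and GCY1. STL1, the glycerol symporter, lay at 4.58, 4.68 and 5.17 in the reference and 8.77, 10.96 and 9.71 at day 15, with 1 reference array above background, and rose by 5.01 ± 0.75 (adjusted p = 0.000517). The glycerol kinase GUT1 and the mitochondrial dehydrogenase GUT2 rose by 2.14 ± 0.51 and 3.39 ± 0.37, and GCY1, a glycerol dehydrogenase, rose by 3.16 ± 0.30 (adjusted p = 4.17e-05).

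Among 61 general stress genes, targets of Msn2 and Msn4, 56 rose, with a median change of 2.62, and the count that fell was 0, or 1 without day 15 replicate 1. MOH1, a gene of survival in stationary phase, lay at 4.72, 4.88 and 5.37 in the reference and 8.83, 10.58 and 10.72 at day 15, and rose by 5.06 ± 0.59 (adjusted p = 0.000116). HSP12, a small membrane-protecting protein, lay at 8.35, 8.04 and 8.40 in the reference and 12.16, 13.85 and 13.66 at day 15, and rose by 4.96 ± 0.68 (adjusted p = 0.000325). MSN4 itself differed by 0.38 ± 0.62 (adjusted p = 0.636), with overlapping arrays. Hydrophilins, small proteins that protect dry cells, included GRE1, at 6.83, 6.28 and 6.85 in the reference and 8.95, 11.82 and 11.49 at day 15, which rose by 4.10 ± 1.07 (adjusted p = 0.00961). In that list 4 of 7 rose and 0 fell, with a median of 2.61. Of 22 markers of stationary phase and quiescence, 15 rose and 0 fell, with a median of 1.89. SPG1, needed for survival at high temperature in stationary phase, rose by 4.07 ± 1.01 (adjusted p = 0.0075), and IGD1, an inhibitor of glycogen debranching, rose by 3.71 ± 0.38 (adjusted p = 5.26e-05). SPG4 differed by 2.99 ± 1.45 (adjusted p = 0.112), and replicate 1 read 8.92 and the others 11.89 and 11.82.

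Chaperones were called in both directions. Of 38 listed, 15 rose and 5 fell (3 without reference replicate 2 and 2 without day 15 replicates 2 and 3), with a median of 1.06. SSA4, the stress-induced Hsp70, lay at 9.22, 9.36 and 9.47 in the reference and 11.86, 12.43 and 12.93 at day 15, and rose by 3.06 ± 0.74 (adjusted p = 0.00661). The Hsp70 nucleotide exchanger SSE2 and the J-domain protein APJ1 rose by 3.09 ± 0.55 and 3.38 ± 0.44, and the Hsp90 gene HSP82 rose by 1.95 ± 0.55 (adjusted p = 0.0143). HSP30, which restrains the plasma membrane proton pump, rose by 3.14 ± 0.77 (adjusted p = 0.00723), from reference arrays that themselves ranged from 9.38 to 11.35.

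Antioxidant genes gave 19 rises and 5 falls (3 without reference replicates 1, 2 and 3 and day 15 replicate 3) among 40, with a median of 0.75. CTT1, the cytosolic catalase, lay at 7.94, 8.97 and 9.31 in the reference and 12.80, 13.81 and 13.47 at day 15, and rose by 4.62 ± 0.43 (adjusted p = 3.33e-05). OYE3, an NADPH oxidoreductase, had its highest bottle value on replicate 1, at 6.41, 6.43 and 6.67 in the reference and 12.07, 10.76 and 11.28 at day 15, and it rose by 4.87 ± 0.68 (adjusted p = 0.000359). SOD2, the mitochondrial superoxide dismutase, SRX1, the sulfiredoxin, and TSA2, a peroxiredoxin, rose by 1.63 ± 0.17, 2.91 ± 0.24 and 2.94 ± 0.45. TRR1, the cytosolic thioredoxin reductase, differed by -0.51 ± 0.34 (adjusted p = 0.243).

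Among 23 genes of the RAS, PKA and TOR pathways that set growth, 5 rose and 3 fell, with a median of 0.35. With the trend on coding length removed, 8 rose. The shares called were 21.7% higher and 13% lower, against 21.4% and 23.5% over all genes. RAS1 lay at 9.88, 10.01 and 10.26 in the reference and 8.22, 8.08 and 8.04 at day 15, and fell by 1.94 ± 0.38 (adjusted p = 0.00221). CDC25, the exchange factor that activates RAS, fell by 1.55 ± 0.21 (adjusted p = 0.000315). PDE1, which degrades cyclic AMP, rose by 1.88 ± 0.23 (adjusted p = 0.000175), and YAK1, a kinase held back by protein kinase A, rose by 1.56 ± 0.31 (adjusted p = 0.00218). RAS2 differed by 0.14 ± 0.33 (adjusted p = 0.749).

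The machinery that makes ribosomes was widely lower. Of 131 ribosome biogenesis factors 105 fell and 0 rose, with a median of -1.26. UTP4, a subunit of the complex that begins processing of the small subunit RNA, lay at 11.35, 11.79 and 12.09 in the reference and 9.93, 8.06 and 8.83 at day 15, and fell by 2.81 ± 0.49 (adjusted p = 0.00116). UTP8, another member of that complex, fell by 2.69 ± 0.41 (adjusted p = 0.000554), and NSR1, a nucleolar protein, fell by 1.56 ± 0.40 (adjusted p = 0.00839). RNA polymerases I and III had 17 of 26 genes lower and 0 higher, with a median of -1.15. RPA43, a polymerase I subunit, lay at 11.86, 11.87 and 11.50 in the reference and 10.15, 8.49 and 8.98 at day 15, and RPA190, its largest subunit, at 12.56, 12.58 and 12.53 in the reference and 11.96, 11.10 and 11.33 at day 15. RPA43 fell by 2.53 ± 0.39 (adjusted p = 0.00058) and RPA190 fell by 1.09 ± 0.26 (adjusted p = 0.00564), with every bottle array below every reference array.

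Ribosomal protein genes themselves had a smaller median change. Of 127 measured for the cytosol 37 fell and 0 rose, with a median of -0.45. The count was 17 without reference replicate 1, 11 without reference replicate 2, 13 without reference replicate 3, 8 without day 15 replicate 2 and 20 without day 15 replicate 3, and 43 without day 15 replicate 1. It was 58 with the trend on coding length removed, 61 with a trended and robust variance model, 64 with only the groups compared and 105 with array weights. RPL6B lay at 13.73, 13.75 and 13.79 in the reference and 13.00, 12.32 and 12.60 at day 15, and fell by 1.12 ± 0.25 (adjusted p = 0.00434), and RPL17B fell by 1.13 ± 0.30 (adjusted p = 0.00978). The core proteins RPL3 and RPS3 differed by -0.26 ± 0.22 (adjusted p = 0.347) and -0.24 ± 0.18 (adjusted p = 0.296). Their reference arrays read between 13.80 and 13.97. Ribosomal proteins of the mitochondrion had 21 of 70 genes higher (13 without reference replicate 1 and 11 without day 15 replicate 3) and 0 lower, with a median of 0.37. RSM7, of the small subunit, rose by 1.44 ± 0.24 (adjusted p = 0.00104), and MRPL28, of the large subunit, rose by 1.35 ± 0.24 (adjusted p = 0.00128). KGD4, listed here under an old name for a ribosomal protein, is now known as a subunit of oxoglutarate dehydrogenase, and it rose by 1.85 ± 0.31 (adjusted p = 0.000994).

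Translation factors had 24 of 38 genes lower, with a median of -0.92. The number higher was 0, or 1 without day 15 replicate 1. NIP1, a subunit of initiation factor 3, lay at 12.84, 12.95 and 12.95 in the reference and 11.13, 10.36 and 10.47 at day 15, and fell by 2.26 ± 0.30 (adjusted p = 0.000247). TIF4631, the scaffold eIF4G, DED1, an RNA helicase of initiation, and GCD1, a subunit of eIF2B, fell by 2.13 ± 0.37, 1.84 ± 0.31 and 1.95 ± 0.27. Of 20 enzymes that charge tRNAs in the cytosol, 18 fell and 1 rose, with a median of -1.36. TYS1, for tyrosine, lay at 12.77, 12.79 and 12.83 in the reference and 11.65, 10.00 and 9.93 at day 15, and fell by 2.27 ± 0.48 (adjusted p = 0.00318). MES1, WRS1 and FRS1, for methionine, tryptophan and phenylalanine, fell by 2.19 ± 0.41, 2.21 ± 0.42 and 2.17 ± 0.49. In these genes replicate 1 of day 15 stood between the reference and the other bottle arrays, as it did for the whole list in the plot of list medians.

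**Figure D4:**
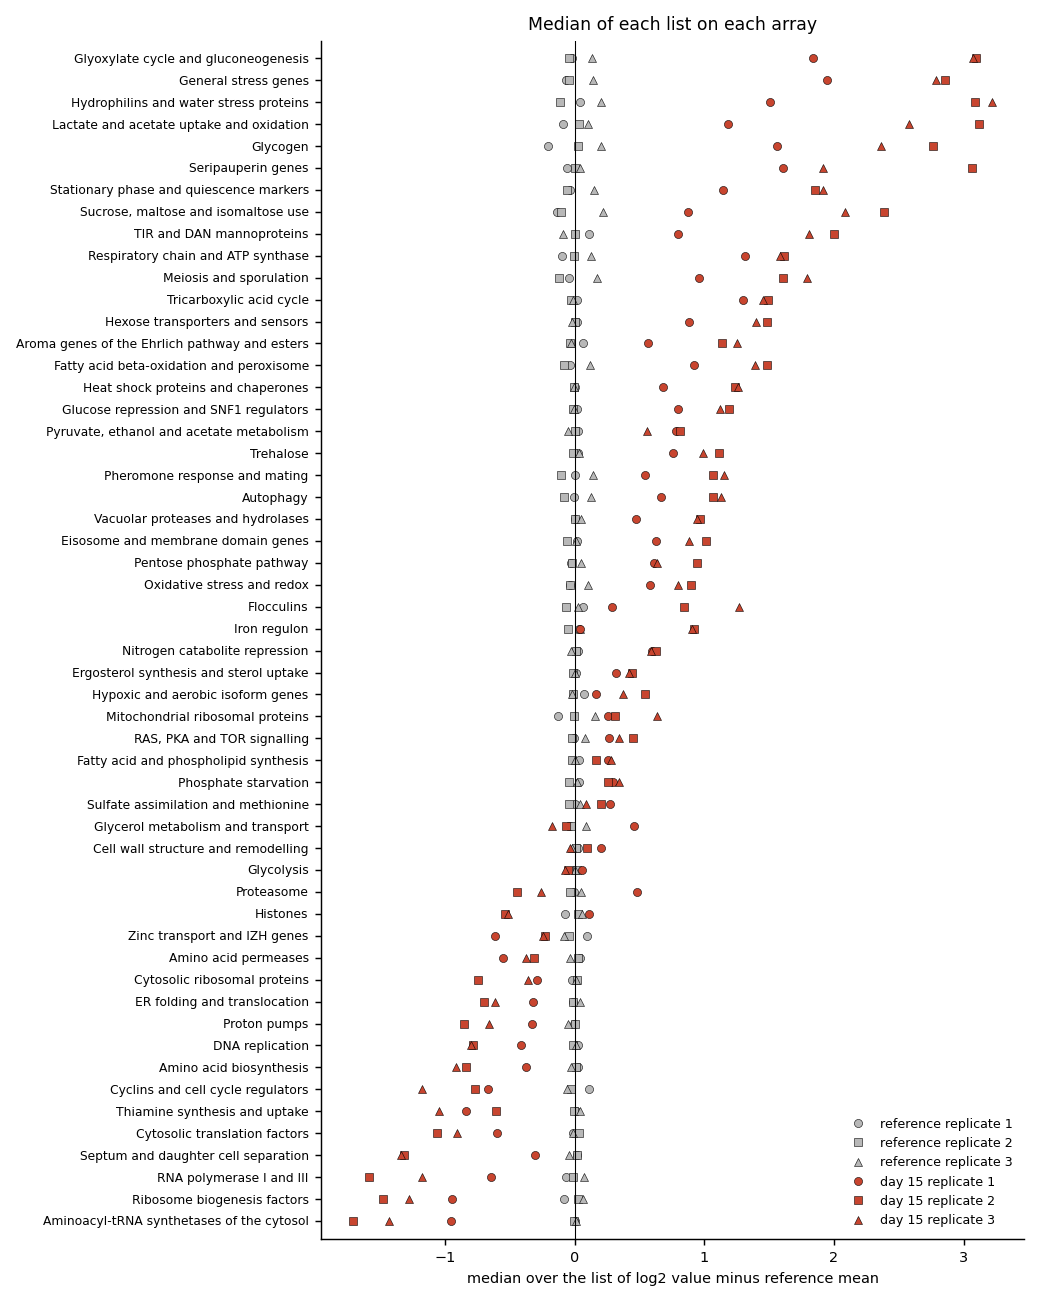
Median over each of 54 lists of the log2 value minus the gene's reference mean, on each reference array (grey) and each day 15 array (red), with symbols for replicates 1 to 3. Replicate 1 of day 15 lies nearest to the reference in 42 lists, and the day 15 and reference medians do not overlap in 48.

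Genes of the cell cycle were lower where called, with few exceptions. Of 34 cyclins and regulators 13 fell (8 without day 15 replicate 3) and 2 rose (1 without reference replicates 1, 2 and 3 and day 15 replicates 1, 2 and 3), with a median of -0.84. CLB6, an S-phase cyclin, lay at 9.64, 9.37 and 9.19 in the reference and 6.09, 5.37 and 5.60 at day 15, and fell by 3.71 ± 0.40 (adjusted p = 7.22e-05). PCL1, a cyclin of the G1 phase, fell by 3.06 ± 0.70 (adjusted p = 0.00486), and the mitotic cyclin CLB1 fell by 2.76 ± 0.63 (adjusted p = 0.00474). CLB2 differed by -2.25 ± 0.97 (adjusted p = 0.0781). FAR1, an inhibitor of G1 cyclin kinases, was above background on no reference array and on all 3 bottle arrays, at 7.08, 7.88 and 7.39, and was at least 6.39-fold higher (adjusted p = 0.00171).

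Replication genes had 20 falls (11 without day 15 replicate 2 and 13 without day 15 replicate 3) among 45, with a median of -0.67. The number that rose was 1, or 0 without reference replicates 2 and 3 and day 15 replicate 2 and 3 without day 15 replicate 1. RNR1, the large subunit of ribonucleotide reductase, lay at 12.23, 12.30 and 12.09 in the reference and 10.63, 9.64 and 9.28 at day 15, and fell by 2.36 ± 0.51 (adjusted p = 0.00388). CDC45, a helicase component, and the origin recognition subunits ORC3 and ORC5 fell by 2.08 ± 0.48, 1.88 ± 0.35 and 2.13 ± 0.23. The sliding clamp POL30 differed by -1.29 ± 0.51 (adjusted p = 0.0568) and the helicase subunit MCM2 differed by -0.30 ± 0.33 (adjusted p = 0.472). Of 10 histone genes 2 fell (0 without reference replicates 1, 2 and 3 and day 15 replicates 2 and 3 and 5 without day 15 replicate 1, and 4 with the trend on coding length removed) and 0 rose, with a median of -0.30. The core histone genes HTA1 and HHF1 differed by -0.22 ± 0.22 (adjusted p = 0.416) and 0.08 ± 0.21 (adjusted p = 0.772). Genes of the septum and of daughter cell separation had 6 falls (2 without reference replicates 1, 2 and 3 and 1 without day 15 replicates 2 and 3, and 3 with the trend on coding length removed) and 0 rises among 19, with a median of -1.10. CDC12, a septin, fell by 1.24 ± 0.29 (adjusted p = 0.00544).

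Nitrogen genes were called in both directions. Of 37 genes under nitrogen catabolite repression, which are silent when good nitrogen sources are present, 11 rose and 4 fell (2 without reference replicates 1, 2 and 3 and day 15 replicate 3, 8 without day 15 replicate 1 and 1 without day 15 replicate 2), with a median of 0.52. The larger rises included proline use. PUT4, the proline permease, lay at 6.00, 5.60 and 6.23 in the reference and 10.90, 11.57 and 10.81 at day 15, and rose by 5.16 ± 0.67 (adjusted p = 0.000236). PUT1, the proline oxidase of mitochondria, rose by 2.99 ± 0.31 (adjusted p = 5.81e-05). DAL80, a repressor of the same regulon, rose by 3.57 ± 0.66 (adjusted p = 0.00161), with 1 reference array above background. GAP1 and MEP2, the general amino acid permease and an ammonium permease, differed by 1.16 ± 1.13 (adjusted p = 0.423) and 1.97 ± 0.97 (adjusted p = 0.116). Their bottle arrays lay above the reference on all 3 arrays.

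Amino acid permeases had 3 rises and 5 falls (2 without reference replicates 1, 2 and 3 and day 15 replicates 1 and 3) among 21, with a median of -0.39. ALP1, an arginine transporter, lay at 5.34, 4.84 and 5.45 in the reference and 8.72, 10.81 and 11.18 at day 15, and rose by 5.03 ± 0.62 (adjusted p = 0.000152). AGP2, a plasma membrane regulator and carnitine transporter, rose by 3.84 ± 0.36 (adjusted p = 3.92e-05). DIP5, the permease for glutamate and aspartate, lay at 11.47, 11.17 and 11.12 in the reference and 5.42, 7.43 and 6.38 at day 15, with day 15 replicate 1 the lowest of all, and fell by 4.84 ± 1.02 (adjusted p = 0.00331). Outside this list, OPT1, which takes up oligopeptides and glutathione, fell by 3.10 ± 0.60 (adjusted p = 0.00201). In amino acid biosynthesis, 31 of 66 genes fell (20 without reference replicate 2 and 19 without day 15 replicates 2 and 3) and 8 rose (5 without reference replicates 1 and 2 and day 15 replicate 2), with a median of -0.76. HIS1, the first enzyme of histidine synthesis, lay at 13.27, 13.26 and 13.26 in the reference and 11.68, 10.36 and 10.30 at day 15, and fell by 2.48 ± 0.40 (adjusted p = 0.000789). HIS7, a later step, fell by 2.39 ± 0.44 (adjusted p = 0.00153). SER2, the phosphatase that ends serine synthesis, fell by 3.55 ± 0.39 (adjusted p = 7.34e-05). ARG3, of arginine synthesis, went the other way, at 7.87, 7.70 and 7.59 in the reference and 10.39, 12.79 and 12.56 at day 15, and rose by 4.19 ± 0.73 (adjusted p = 0.0012). GDH3, the glutamate dehydrogenase isoform of non-fermentable carbon, rose by 4.40 ± 0.86 (adjusted p = 0.00219). GCN4, the activator of these pathways, differed by 0.35 ± 0.16 (adjusted p = 0.0924), at values of 13.59 or more on all arrays.

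Sulfur genes gave 10 rises (6 without reference replicate 2 and day 15 replicate 2) and 6 falls (3 without reference replicate 2 and day 15 replicate 3) among 34, with a median of 0.12. These were 29.4% and 17.6%, against 21.4% and 23.5% over all genes. MET2, homoserine acetyltransferase, lay at 6.18, 6.73 and 7.06 in the reference and 10.21, 11.03 and 10.47 at day 15, and rose by 3.92 ± 0.38 (adjusted p = 4.17e-05). MET28, a regulator of the pathway, rose by 2.06 ± 0.32 (adjusted p = 0.000603), and STR3, a cystathionine beta-lyase, rose by 2.64 ± 0.37 (adjusted p = 0.00034). SAM4, a homocysteine methyltransferase, fell by 2.41 ± 0.57 (adjusted p = 0.00595), and MET3, the sulfurylase at the head of assimilation, differed by -0.07 ± 0.53 (adjusted p = 0.924).

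Phosphate genes gave 4 rises (2 without reference replicate 1 and day 15 replicate 3 and 1 without reference replicate 2 and day 15 replicate 2) and 5 falls (3 without reference replicates 1, 2 and 3 and day 15 replicates 1 and 2) among 25, with a median of 0.20. These were 16% and 20%, against 21.4% and 23.5% over all genes. PHM8, a phosphatase that acts on nucleotides and lysophosphatidic acid, lay at 5.41, 5.58 and 6.79 in the reference and 11.20, 11.98 and 11.86 at day 15, and rose by 5.75 ± 0.59 (adjusted p = 5.31e-05). PHO91, a vacuolar phosphate transporter, fell by 1.18 ± 0.24 (adjusted p = 0.00292). The high-affinity transporter PHO84 differed by 2.08 ± 0.90 (adjusted p = 0.0782). PHO3, an acid phosphatase that also belongs to the thiamine genes, lay at 12.15, 12.26 and 12.33 in the reference and 8.81, 7.91 and 8.31 at day 15, and fell by 3.90 ± 0.45 (adjusted p = 0.000112). Among 15 thiamine genes 7 fell and 2 rose (1 without reference replicate 2 and day 15 replicates 2 and 3), with a median of -0.85. THI7, the thiamine transporter, and THI20, a kinase of the pathway, fell by 2.88 ± 0.58 and 2.37 ± 0.46. THI13, of the precursor family, rose by 3.98 ± 0.43 (adjusted p = 7.22e-05), on a probe set shared with near-identical genes.

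The iron regulon had 14 of 33 genes higher and 4 lower, with a median of 0.55. HMX1, the haem oxygenase, lay at 7.77, 7.96 and 8.77 in the reference and 12.31, 12.86 and 12.77 at day 15, and rose by 4.48 ± 0.61 (adjusted p = 0.000295). The cell wall mannoprotein FIT1 rose by 2.27 ± 0.47 (adjusted p = 0.00309). The high-affinity iron oxidase FET3 differed by 0.65 ± 0.47 (adjusted p = 0.28), and its partner permease FTR1 fell by 1.23 ± 0.39 (adjusted p = 0.0233), a call lost without reference replicates 1, 2 and 3 and day 15 replicates 1 and 3 taken 1 at a time (adjusted p = 0.051 to 0.0807). Zinc genes had 1 rise (2 without day 15 replicate 1) and 3 falls among 13, with a median of -0.31. ZRT2, a zinc transporter, fell by 1.58 ± 0.31 (adjusted p = 0.00225), and COT1, which moves zinc into the vacuole, rose by 2.15 ± 0.28 (adjusted p = 0.000238).

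Sterol and lipid genes were called in both directions. Genes of ergosterol synthesis and sterol uptake had 5 rises (2 without reference replicate 2 and day 15 replicate 2 and 3 without reference replicate 3 and day 15 replicate 3) and 3 falls among 33, with a median of 0.42. These were 15.2% and 9.09%, against 21.4% and 23.5% over all genes. The rises include DAN1, a cell wall mannoprotein that is counted again below with the TIR and DAN genes. With only the groups compared in the fit, and likewise with array weights, 16 rose and 7 fell. ERG1 and ERG11, which use oxygen, differed by 0.26 ± 0.37 (adjusted p = 0.594) and 0.28 ± 0.34 (adjusted p = 0.524). ECM22, a sterol regulator, fell by 1.76 ± 0.32 (adjusted p = 0.00134). In fatty acid and phospholipid synthesis 9 of 31 rose (29%) and 6 fell (19.4%), not far from the 21.4% and 23.5% over all genes, with a median of 0.26. INO1, the inositol-3-phosphate synthase that opens inositol synthesis, lay at 8.11, 8.23 and 8.54 in the reference and 13.47, 13.44 and 13.37 at day 15, and rose by 5.13 ± 0.56 (adjusted p = 7.63e-05). The bottle arrays of INO1 stood close together. OPI3, a methyltransferase of phosphatidylcholine synthesis, rose by 2.03 ± 0.22 (adjusted p = 6.72e-05). ELO2, a fatty acid elongase, fell by 2.31 ± 0.55 (adjusted p = 0.00624), and OLE1, the oxygen-dependent desaturase, differed by 0.50 ± 0.33 (adjusted p = 0.244).

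Genes known to respond to oxygen were called in both directions. Of 27 hypoxic and aerobic genes 8 rose (29.6%) and 5 fell (18.5%), with a median of 0.42. These shares are not far from the 21.4% and 23.5% over all genes. AAC3, the ADP/ATP carrier of anaerobic growth, lay at 12.24, 12.05 and 11.83 in the reference and 8.22, 7.60 and 7.69 at day 15, and fell by 4.21 ± 0.59 (adjusted p = 0.000343). HEM13, a haem synthesis gene known to rise when oxygen is short, fell by 2.10 ± 0.49 (adjusted p = 0.0053). CYC1 and CYC7, the aerobic and the hypoxic cytochrome c, rose by 1.87 ± 0.38 and 2.68 ± 0.48. NCE103, a carbonic anhydrase known to be induced at low carbon dioxide, lay at 9.76, 10.03 and 10.39 in the reference and 12.75, 12.29 and 11.54 at day 15, and rose by 2.13 ± 0.36 (adjusted p = 0.00105). ROX1, the repressor of hypoxic genes, differed by 1.30 ± 0.52 (adjusted p = 0.06).

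Anaerobic cell wall genes were high in the bottles. Of 13 seripauperin (PAU) genes tested, a family known from anaerobic and cold growth, 9 rose (5 without day 15 replicate 2) and 0 fell, with a median of 2.08. Of the 13 probe sets 10 are shared among near-identical members, so these are not separate counts. PAU5, on a probe set of its own, lay at 8.44, 8.43 and 8.33 in the reference and 11.10, 13.69 and 13.14 at day 15, and rose by 4.24 ± 1.05 (adjusted p = 0.00737). Of 9 TIR and DAN mannoproteins 5 rose (3 without reference replicate 3 and day 15 replicate 2) and 0 fell, with a median of 1.53. DAN1, expressed without oxygen, lay at 5.57, 4.86 and 5.59 in the reference and 11.11, 12.21 and 11.34 at day 15, and rose by 6.22 ± 1.81 (adjusted p = 0.0163). Its call was lost without reference replicate 2 and day 15 replicate 2 taken 1 at a time (adjusted p = 0.0514 to 0.0578). The standard deviation of DAN1 was 0.42 in the reference, 0.58 at day 15 and 4.65 at day 19, and all of these enter its standard error. TIR2, a cold-shock mannoprotein, lay at 9.32, 9.47 and 9.02 in the reference and 13.67, 13.59 and 13.46 at day 15, and rose by 4.30 ± 1.26 (adjusted p = 0.0171). Its call was lost without reference replicate 3 and day 15 replicate 2 taken 1 at a time (adjusted p = 0.0504 to 0.051). TIR1 differed by -0.27 ± 1.31 (adjusted p = 0.881), and all 6 arrays read between 13.03 and 13.54. Its standard error also draws on the day 7 and day 19 arrays and is not the spread of these 6. The list also held PAU24, a PAU gene once called DAN3, which rose by 4.21 ± 0.77 (adjusted p = 0.00149) on a shared probe set.

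Other wall genes had 10 rises and 7 falls (3 without reference replicates 1 and 2 and day 15 replicates 2 and 3 and 4 without reference replicate 3, and 4 with centring on the S. pombe probe sets) among 40, with a median of 0.01. These were 25% and 17.5%, against 21.4% and 23.5% over all genes. PIR3, a covalently bound wall protein, lay at 8.65, 8.91 and 8.87 in the reference and 12.25, 13.25 and 13.17 at day 15, and rose by 4.08 ± 0.31 (adjusted p = 1.03e-05). SPI1, a wall protein of weak acid resistance, rose by 3.61 ± 0.26 (adjusted p = 8.62e-06). TOS6, a wall protein with a lipid anchor, lay at 12.43, 12.43 and 12.22 in the reference and 10.69, 8.12 and 8.05 at day 15, and fell by 3.41 ± 0.65 (adjusted p = 0.00185). Flocculins and their regulators had 1 rise among 8 and 0 falls (1 without day 15 replicate 1), with a median of 0.64. The rise is 12.5% of that list, against 21.4% called higher over all genes. FLO11, the adhesin of biofilms, differed by 2.26 ± 1.10 (adjusted p = 0.112), and its values ran from 8.32 to 9.98 in the reference and from 9.78 to 13.22 at day 15. PHD1, a transcription factor of filamentous growth, rose by 2.10 ± 0.48 (adjusted p = 0.00482).

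At the plasma membrane, 8 of 16 genes of eisosomes and membrane domains rose (5 without reference replicates 1 and 3 and 4 without reference replicate 2 and day 15 replicates 2 and 3) and 0 fell, with a median of 0.81. YNL194C, a membrane protein related to Sur7, lay at 7.23, 7.40 and 8.22 in the reference and 12.52, 12.79 and 12.99 at day 15, and rose by 5.15 ± 0.38 (adjusted p = 9.93e-06). The eisosome kinases PKH1 and PKH2 rose by 2.13 ± 0.45 and 1.31 ± 0.27. Proton pump genes of the plasma membrane and vacuole gave 11 falls (3 without reference replicates 1 and 2 and day 15 replicate 3, 4 without reference replicate 3 and 2 without day 15 replicate 2; 15 without day 15 replicate 1) and 1 rise among 20, with a median of -0.60. The gene that rose was HSP30, given above, which is a regulator and not a pump. VPH1, a vacuolar ATPase subunit, lay at 13.50, 13.57 and 13.44 in the reference and 12.83, 12.27 and 12.41 at day 15, and fell by 1.00 ± 0.19 (adjusted p = 0.00195). PMA1, the main plasma membrane pump, differed by -0.87 ± 0.36 (adjusted p = 0.0704).

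Self-digestion, or autophagy, breaks down cell parts in the vacuole. Of 39 autophagy genes 22 rose, with a median of 0.86, and the number that fell was 1, or 0 without reference replicates 1 and 3 and day 15 replicates 2 and 3 and 2 without day 15 replicate 1. ATG8, which coats the growing autophagosome membrane, lay at 9.66, 9.84 and 10.07 in the reference and 11.98, 12.32 and 12.26 at day 15, and rose by 2.33 ± 0.20 (adjusted p = 2.23e-05). ATG1, the kinase that starts the process, rose by 1.76 ± 0.20 (adjusted p = 9.23e-05). ATG39, a receptor for degradation of the nucleus and perinuclear membrane, lay at 6.05, 5.73 and 6.18 in the reference and 8.81, 10.86 and 11.00 at day 15, and rose by 4.24 ± 0.75 (adjusted p = 0.0013), and ATG40, a receptor for endoplasmic reticulum, rose by 2.16 ± 0.44 (adjusted p = 0.00261). Vacuolar hydrolases had 10 of 18 higher, with a median of 0.84, and 1 lower, or 0 without reference replicates 1, 2 and 3 and day 15 replicates 2 and 3. PRB1, proteinase B, lay at 10.62, 10.91 and 10.50 in the reference and 12.71, 13.18 and 12.92 at day 15, and rose by 2.26 ± 0.22 (adjusted p = 4.17e-05). The vacuolar mannosidase AMS1 rose by 2.96 ± 0.20 (adjusted p = 5.6e-06), and PEP4, proteinase A, rose by 1.00 ± 0.17 (adjusted p = 0.00104).

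The proteasome gave 1 rise among 37 genes, with a median of -0.09, and the count of falls was 1, or 0 without reference replicates 2 and 3 and day 15 replicates 2 and 3 and 8 without day 15 replicate 1. The rise was in RPN4, the activator of proteasome genes, at 11.18, 11.18 and 11.29 in the reference and 12.89, 13.39 and 13.33 at day 15, which rose by 1.99 ± 0.30 (adjusted p = 0.000554). In the endoplasmic reticulum 16 of 36 folding and translocation genes fell (9 without reference replicates 2 and 3, 7 without day 15 replicate 2 and 8 without day 15 replicate 3) and 1 rose (0 without reference replicates 1, 2 and 3 and day 15 replicates 1, 2 and 3), with a median of -0.56. SEC63, a translocation subunit, lay at 11.94, 11.97 and 12.08 in the reference and 10.61, 9.38 and 8.66 at day 15, and fell by 2.45 ± 0.43 (adjusted p = 0.00126). STT3, the catalytic subunit of oligosaccharyl transfer, fell by 1.81 ± 0.32 (adjusted p = 0.00126). KAR2, the main Hsp70 of this compartment, differed by 0.27 ± 0.37 (adjusted p = 0.574).

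Genes of meiosis and spore formation, which yeast uses when starved on a poor carbon source, were widely higher. Of 62 listed 39 rose, with a median of 1.43, and 1 fell, or 0 without reference replicates 1 and 3 and day 15 replicates 1 and 2. RIM4, an RNA-binding protein of meiosis, lay at 5.61, 5.41 and 5.47 in the reference and 8.83, 11.69 and 11.05 at day 15, and rose by 5.02 ± 0.63 (adjusted p = 0.000169). OSW1, a spore wall gene, lay at 4.29, 4.83 and 4.64 in the reference and 8.36, 10.21 and 10.14 at day 15, with 1 reference array above background, and rose by 4.98 ± 0.69 (adjusted p = 0.00034). CSM4, a protein of chromosome movement, was above background on no reference array and was at least 6.87-fold higher. SPR28, a septin of sporulation, rose by 4.07 ± 0.99 (adjusted p = 0.007). IME1, the master activator, lay at 5.68, 5.71 and 5.87 in the reference and 6.47, 8.58 and 7.87 at day 15, and differed by 1.88 ± 1.01 (adjusted p = 0.15), and the meiotic kinase IME2 differed by -0.36 ± 0.27 (adjusted p = 0.297).

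Pheromone and mating genes had 16 rises (9 under quantile normalization) and 3 falls among 34, with a median of 0.90. STE3, the receptor for a-factor, lay at 5.93, 5.96 and 6.44 in the reference and 7.82, 9.14 and 9.02 at day 15, and rose by 2.55 ± 0.34 (adjusted p = 0.000263). AGA2, an agglutinin subunit, was above background on no reference array and was at least 4.15-fold higher. FUS1, of cell fusion, rose by 2.15 ± 0.45 (adjusted p = 0.0031), whereas STE12, the transcription factor of the pathway, fell by 1.61 ± 0.30 (adjusted p = 0.0017). The 3 day 15 arrays of AGA2 read 7.29, 6.77 and 6.41.

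Aroma genes of the Ehrlich pathway and of ester synthesis matter to the taste of the wine. Of 22 listed 10 rose and 2 fell (1 without reference replicates 1, 2 and 3 and day 15 replicates 1, 2 and 3), with a median of 1.25. ADH7, an alcohol dehydrogenase for branched alcohols, lay at 7.82, 7.52 and 8.02 in the reference and 13.16, 10.71 and 10.61 at day 15, and rose by 3.71 ± 0.84 (adjusted p = 0.00485). Its highest array was replicate 1, as for AAD4, an aryl-alcohol dehydrogenase on a shared probe set, which rose by 2.74 ± 0.55 (adjusted p = 0.00245). EEB1, which makes ethyl esters of fatty acids, lay at 10.12, 10.08 and 10.04 in the reference and 12.24, 13.09 and 13.11 at day 15, and rose by 2.74 ± 0.88 (adjusted p = 0.0261), a call lost without reference replicates 1, 2 and 3 and day 15 replicates 2 and 3 taken 1 at a time (adjusted p = 0.0621 to 0.0806). ATF1, the alcohol acetyltransferase, fell by 0.77 ± 0.28 (adjusted p = 0.0448), a call lost without any 1 of the 6 arrays (adjusted p = 0.0584 to 0.131), and with median centring, under quantile normalization, with centring on the S. pombe probe sets, with a replicate block and with the trend on coding length removed (adjusted p = 0.0527 to 0.068). ARO9 and ARO10, of amino acid breakdown to fusel alcohols, differed by 0.50 ± 1.10 (adjusted p = 0.735) and 1.54 ± 0.92 (adjusted p = 0.193).

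The largest changes outside these lists included genes of little known function. YNR071C, a putative aldose epimerase, lay at 6.69, 6.41 and 6.76 in the reference and 13.00, 13.59 and 13.48 at day 15, and rose by 6.73 ± 0.70 (adjusted p = 5.45e-05). YHR033W, uncharacterised, rose by 6.57 ± 0.59 (adjusted p = 2.95e-05). YIG1, named for binding the glycerol-3-phosphatase, rose by 6.21 ± 0.62 (adjusted p = 4.82e-05), and AGX1, alanine:glyoxylate aminotransferase, rose by 5.50 ± 0.37 (adjusted p = 5.6e-06). HPA2, an acetyltransferase, rose by 5.50 ± 0.39 (adjusted p = 8.62e-06). BSC4 was above background on no reference array and was at least 23-fold higher. Of the falls, that of YAR068W, uncharacterised, was the largest, at 13.27, 13.13 and 13.15 in the reference and 7.84, 7.99 and 8.11 at day 15, and it fell by 5.20 ± 0.21 (adjusted p = 9.26e-08). YDL241W, also uncharacterised, lay at 12.21, 12.23 and 12.35 in the reference and 9.11, 7.86 and 7.85 at day 15, and fell by 3.99 ± 0.50 (adjusted p = 0.00019). CHA1, which breaks down serine and threonine, fell by 3.37 ± 0.90 (adjusted p = 0.0108), and TOS4, a forkhead-domain protein, fell by 3.26 ± 0.81 (adjusted p = 0.00735). VBA4, a vacuolar transporter, RIM9, of pH sensing, and MDM20, of N-terminal acetylation, fell by 3.21 ± 0.35, 3.25 ± 0.33 and 3.15 ± 0.58.

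Paralogous genes for one activity were compared next. Of 44 pairs, both genes were called in 17, in opposite directions in 7 and in the same direction in 10. One gene passed the test in 23 pairs and none in 4. The difference between partners was not tested. The pairs in which none passed include ADH1 and ADH2, given above for ADH2. The acyl-CoA synthetases FAA1 and FAA4 were opposite: FAA1 rose by 3.10 ± 0.28 (adjusted p = 2.97e-05) and FAA4 fell by 2.14 ± 0.22 (adjusted p = 5.26e-05). The ADP/ATP carrier PET9 rose by 1.00 ± 0.20 (adjusted p = 0.00215), against the fall of AAC3. Pyruvate carboxylase PYC1 rose by 2.88 ± 0.21 (adjusted p = 9.93e-06) and PYC2 fell by 0.74 ± 0.26 (adjusted p = 0.0368), a call lost without any 1 of the 6 arrays (adjusted p = 0.0525 to 0.113), and with centring on the S. pombe probe sets and with the trend on coding length removed (adjusted p = 0.0527 to 0.159). For glutamate dehydrogenase GDH1 fell by 1.28 ± 0.35 (adjusted p = 0.0127), a call lost without day 15 replicate 2 (adjusted p = 0.0605), against the rise of GDH3. The glucan synthase GSC2, known from stress and sporulation, rose by 2.57 ± 0.26 (adjusted p = 5.12e-05), while FKS1, that of growth, fell by 0.86 ± 0.31 (adjusted p = 0.0421), a call lost without reference replicates 1, 2 and 3 and day 15 replicates 2 and 3 taken 1 at a time (adjusted p = 0.0745 to 0.129), and under quantile normalization, with centring on the S. pombe probe sets, with a replicate block and with the trend on coding length removed (adjusted p = 0.0506 to 0.195). SUN4, of septation, fell by 1.61 ± 0.59 (adjusted p = 0.0434), a call lost without reference replicates 1, 2 and 3 and day 15 replicates 2 and 3 taken 1 at a time (adjusted p = 0.0748 to 0.157), and with centring on the S. pombe probe sets and with a replicate block (adjusted p = 0.0509 to 0.0578), and its paralogue NCA3 rose by 5.56 ± 0.21 (adjusted p = 7.57e-08).

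**Figure D5:**
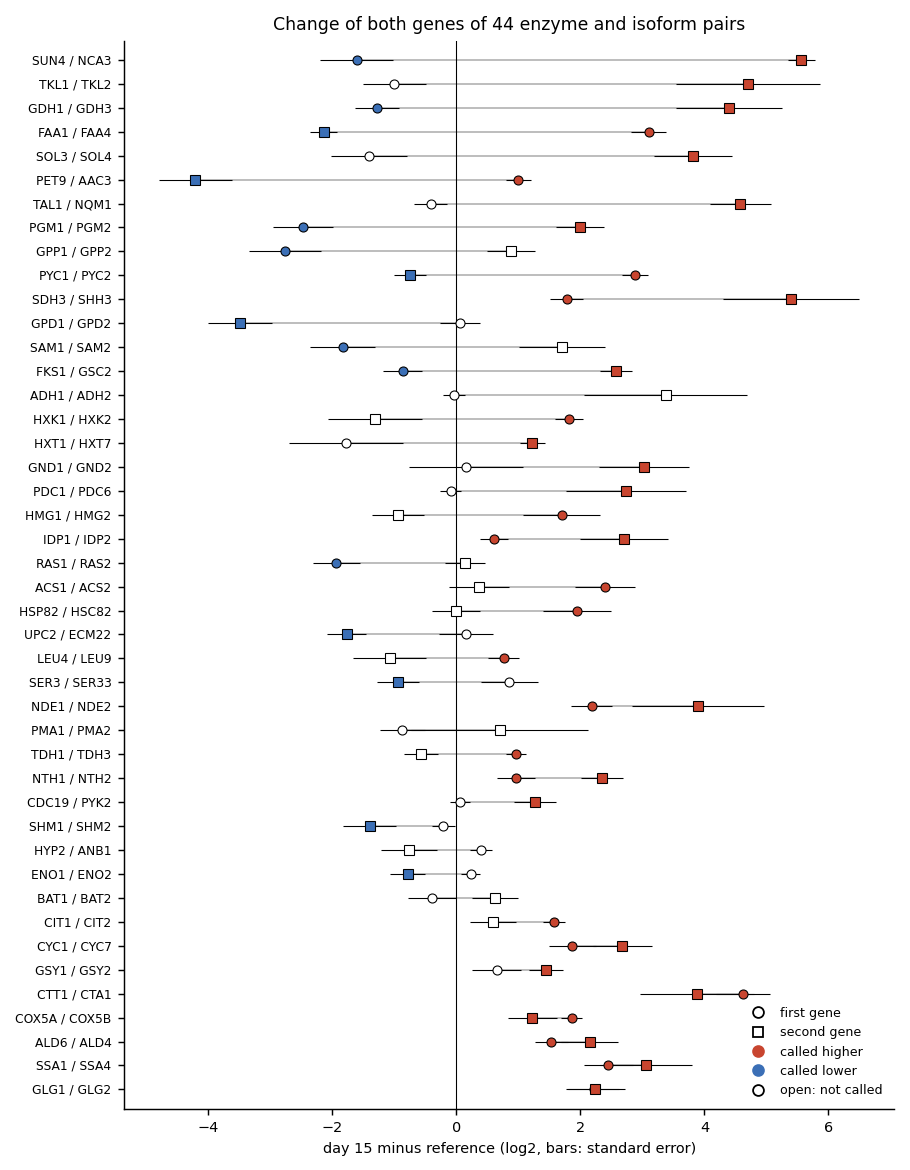
Change at day 15 (log2, n = 3 arrays in each group) of both genes of 44 pairs, ordered by the gap between them. Bars are standard errors from the fit of all 12 arrays. The first gene is a circle and the second a square, red where called higher, blue where called lower and open where not called. SUN4 and NCA3 lie furthest apart, and 7 pairs have one red and one blue gene.

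Day 15 was also set against the other bottle sampling points, day 7 and day 19, with ethanol up by 0.26% and 1.27%. At an adjusted p under 0.05 limma called 0 of 5449 genes in either comparison. At an unadjusted p under 0.05 there were 572 genes between day 15 and day 7, which is 10.5%, and 600 between day 15 and day 19, which is 11%. The lowest adjusted p were 0.283 and 0.182. The counts rest on the arrays used. Without day 15 replicate 1, 107 genes were called against day 7, and without day 19 replicate 1, 49 against day 19. Against the shared reference, the change of PAU5 was 1.31 on day 7, 4.24 on day 15 and 4.23 on day 19, and that of TIR1 -3.13 on day 7, -0.27 on day 15 and -2.03 on day 19. STL1 gave 7.21 on day 7, 5.01 on day 15 and 4.80 on day 19. The direct difference of PAU5 between day 15 and day 7 was 2.93 ± 1.05 (adjusted p = 0.424), and that of DIP5 between day 15 and day 19 -3.28 ± 1.02 (adjusted p = 0.346). For the amino acid permease DIP5 the change from the reference was -3.30 on day 7, -4.84 on day 15 and -1.56 on day 19, and for the phosphatase GPP1 -1.21 on day 7, -2.76 on day 15 and -0.85 on day 19.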

How the data were processed

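RNA from 12 samples, 5 µg each, was labelled with biotin from the 3′ end and hybridised to 12 single-colour Affymetrix arrays, per the labels' protocols. The deposited log2 values summarise each probe set after RMA, per the submitters' processing notes. Which program and release ran RMA is not given in the sources used here. No value was rescaled, and 3 arrays per group limit the precision.

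Of 10928 probe sets, 5498 were paired with 1 S. cerevisiae gene. For 47 genes with several, the brightest probe set by its 12-array mean was used, which left 5449 genes. The RefSeq table updated 12 symbols. Background was the 0.95 quantile of the 1746 Schizosaccharomyces pombe probe sets on each array, 4.50 to 4.82, and 96.7% to 98.8% of genes lay above it. "At least" marks a fold set against this background, because no array of the lower group exceeded it. A suffix marks the probe sets of 117 genes as shared with other genes.

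One limma fit (version 3.58.1, R 4.3.3, lmFit and eBayes) covered the 4 groups on 12 arrays, with 8 residual and 3.42 prior degrees of freedom. Genes were called at adjusted p under 0.05. The fit was tested on simulated data. Named genes are the 15 largest rises and falls without overlap or shared sequence, marked list members, up to 4 further called members per list, and 44 pairs. The 54 lists, the pairs and the members were chosen with earlier results of these data known, and lists are described by counts and medians without a set test. Alternatives covered 3 scalings, probe set filters, the variance model, the arrays in the fit, array weights, stricter thresholds, a replicate block, the trend on coding length and each array left out. The labels do not say whether replicate numbers pair the samples. Deviations of same-numbered reference and day 15 arrays correlated at 0.07, -0.12 and 0.24. Reference replicates 1 and 3 matched their own number best and replicate 2 did not. With 3 arrays in each group these values cannot decide whether the samples were paired. Promoter sequences were not used here. Python 3.11.15 with matplotlib 3.10.9 drew the figures.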

Additional observations from a re-analysis of the deposited data

Results flagged for a closer look

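FTR1, the iron permease, lay below all reference arrays on every day 15 array, with a difference of -1.23, and above all of them on every day 19 array, with a difference of 0.77. The direct difference of day 15 and day 19 was -2.00 ± 0.39 (adjusted p = 0.198). ERG1, the squalene epoxidase of ergosterol synthesis, lay above the reference on every day 15 array, by 0.26, and below it on every day 7 array, at -0.62. The direct difference of day 15 and day 7 was 0.88 ± 0.37 (adjusted p = 0.455). ACS2, the acetyl-CoA synthetase of growth on glucose, lay above the reference on every day 15 array, by 0.37, and below it on every day 7 array, at -0.66. Its direct difference was 1.02 ± 0.48 (adjusted p = 0.479). None of the 3 differences passed the adjusted test. Among probe sets without a gene name here, which no comparison used, 8 of 3470 were above background on all 3 day 15 arrays and on no reference array, and 12 showed the reverse. The same counts over the 5449 named genes were 43 and 2.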

How the results depend on the processing

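Under the alternatives run, the number of genes called higher at day 15 was 1164 and ranged from 858 to 1197 with 1 array left out, and the number called lower was 1283 and ranged from 826 to 1382. Array weights gave 2115 and 2322, an estimate that did not converge fully, and adjusted p under 0.01 gave 768 and 712. With a replicate block 1184 and 1254 genes were called, with only the groups compared 1582 and 1734, under quantile normalization 1027 and 1331, and without day 7 replicate 1 and day 19 replicate 1 in the fit 1528 and 1689. GPD1 changed from 0.06 to -0.29 with array weights, and the cause was not tested. Between day 15 and day 7 the count of 0 became 1474 with array weights, 0 to 107 with 1 array left out and 3 without day 7 replicate 1 and day 19 replicate 1. Between day 15 and day 19 it became 804 with array weights, 0 to 49 with 1 array left out and 261 without those same arrays. Of 294 named genes called, 64 lost the call at adjusted p under 0.01, 54 without day 15 replicate 2 and 0 with array weights or only the groups compared. Of 108 counts of list members, those that moved by over 1.5 times were 57 with array weights and 28 with only the groups compared, all upward, 42 at adjusted p under 0.01, 20 at a change of at least 2-fold and 6 under quantile normalization, all downward, 6 upward and 6 downward with the trend on coding length removed, and 3 upward and 4 downward with a replicate block. The median change of glycolysis, glycerol, cell wall and proteasome genes changed sign under 1 or more settings. Genes near the top or the background of the scale may have compressed changes, which was not tested.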
